A study of Oncorhynchus mykiss with 12 samples.

Results

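The mitosis and cyclin genes were followed in liver RNA of rainbow trout (Oncorhynchus mykiss) kept under moderate hypoxia, at 4.5 ± 0.1 mg/L dissolved oxygen for 1 month per the series' design text, and in liver RNA of control trout. Both groups were labelled wild-type, and each had 3 RNA-seq libraries. The members were 50 genes chosen by name, with earlier results of these data known. Every row of the expression table whose symbol was a member's name, with or without a copy suffix, was taken as a locus of that gene. This gave 106 loci of 42128 rows, and 38 of the 50 genes had 2 or more loci. Salmonid fishes descend from an ancestor whose genome was duplicated, so many of their genes have paired copies. No member was without a locus. The symbols come from the deposited table. One of the matches, CDC20B (110525175), is a relative of cdc20 rather than a copy of it, and both loci with the symbol Cdc25b are described as M-phase inducer phosphatases, one of them as type 1.

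Cells divide in an ordered cycle in which cyclins switch on cyclin-dependent kinases (CDKs). Cyclins D and E with CDK4, CDK6 and CDK2 carry cells from the G1 phase into DNA synthesis, cyclins A and B with CDK1 drive mitosis, and the CDK inhibitors hold the cycle back. In mitosis condensin packs the chromosomes, kinetochores tie them to the spindle, a checkpoint delays separation until every chromosome is attached, and a contractile ring then divides the cell. Most hepatocytes of an adult mammalian liver are out of the cycle, so that transcripts of mitosis are scarce there.

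The counts summed to 19060468 to 20128921 in the hypoxia libraries and to 19376248 to 23152833 in the control libraries. Hepatocyte genes were abundant in all 6 libraries, with 42 of 45 marker loci over a mean of 0.5 FPKM and a median of 733 FPKM among them. FPKM is the authors' count scaled for gene length and library size. On the first principal component of all tested genes, with 44.1% of the variance, the hypoxia libraries lay at -33.2 to -24.9 and control replicates 2 and 3 at 41.8 and 38.6, while control replicate 1 lay at 9.57, between them. No label ties a library to its own fish, so each p-value rests on the spread among libraries, and that spread may be technical.

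Higher in hypoxia were 18 of the 67 member loci that could be tested, and 0 were lower. They belong to 16 genes, among them the proliferation marker mki67, cyclin D1, both cyclin A2 loci, both mad2l1 loci of the spindle checkpoint, the kinetochore motor cenpe and the cytokinesis motor kif23. The test was edgeR's quasi-likelihood test on the deposited counts with an adjusted p under 0.05 over 19365 genes, of which 3.83% were higher and 3.39% lower in hypoxia, 7.22% in all. In bulk liver, more dividing cells and more RNA per dividing cell cannot be told apart. The fold changes of the 18 loci ran from 0.81 to 1.71 on the log2 scale, hypoxia over control, and 11 of the 18 were at least at 1. At an unadjusted edgeR p under 0.05, 46 member loci were higher and 0 lower, where 12.1% of all tested genes were higher and 11.6% lower. The median log2 fold change of the tested member loci was 0.82, and that of all tested genes was 0.00.

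The other 39 member loci were under the minimum of 0.5 FPKM in the mean of all libraries, and 3 of them had no count in any library (birc5b and 2 CDKN1B loci). Of the 67 tested loci 15 had a control mean under that minimum and so were tested through their hypoxia level, and 6 of these were among the 18 (cdk2, kif11, cenpa, bub1bb, MAD2L1 110531872 and smc2). A locus that passes the minimum only through its hypoxia level had to differ, so counts that hold such loci are descriptions. The other 52 held the remaining 12, beside 3.54% of all tested genes with a control mean of at least 0.5 FPKM. With no minimum, 103 member loci had a fit and 29 were higher and 0 lower, where 2.88% of all genes were higher, and their median log2 fold change was 0.81. Most members were low, with a median over the tested loci of 75.5 reads per library, against 135 for all tested genes.

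**Figure D1:**
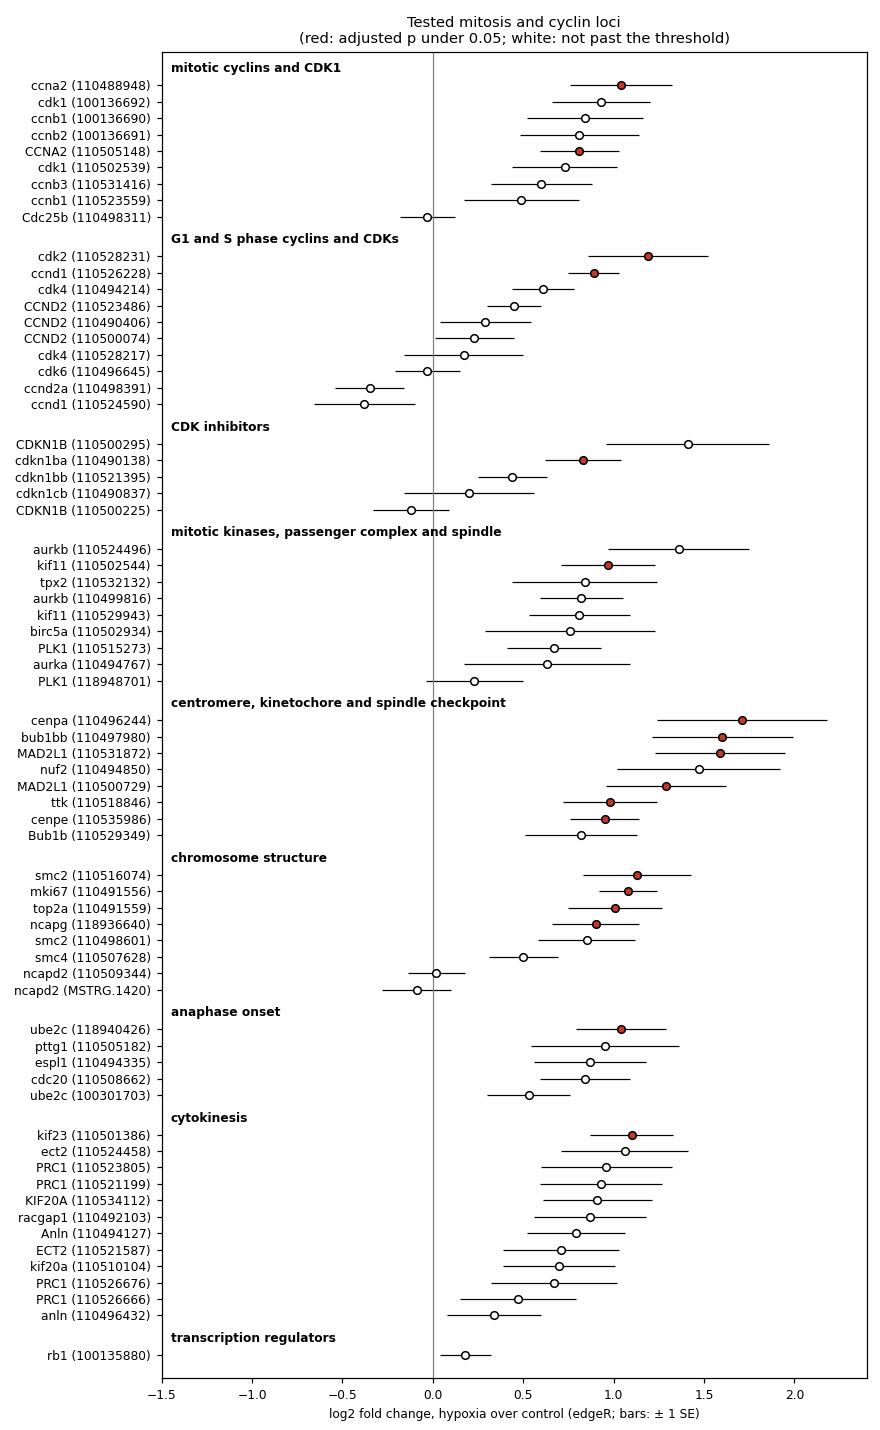
Log2 fold change of hypoxia over control from edgeR (x axis, bars are 1 SE) for each of the 67 tested loci (rows, symbol and NCBI gene number), grouped by role. Red points mark the 18 loci with an adjusted p under 0.05, all to the right of 0, and 61 of the 67 points lie above 0. Of all 19365 tested genes 9583 had fitted values above 0. The 18 and the 61 hold loci that passed the minimum only through their hypoxia level, so both counts are descriptions.

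Because reads of near-identical copies can be split between loci, the loci of each gene were also summed and the fit repeated, a step added after the locus values had been seen. Of the 50 genes 47 passed the level minimum in that form, 18 were higher and 0 lower, where 3.84% of all rows were higher. These were ccna2, ccnd1, cdk2, cdk4, aurkb, cenpa, cenpe, ndc80, bub1, bub1b, mad2l1, ttk, mki67, top2a, smc2, ube2c, kif23 and e2f1. Of them cenpa, ndc80 and e2f1 had summed control means of 0.395, 0.441 and 0.347 FPKM and so passed the minimum only through their hypoxia level. The summed levels of 31 of the 47 were above every control library in every hypoxia library. That pattern held at 13.9% of all tested genes as single rows, which is not a like measure. The 31 hold cenpa, ndc80 and e2f1, and also nuf2 and birc5, with summed control means of 0.453 and 0.379 FPKM. These passed the minimum only through their hypoxia level, so the 31 is a description. By the adjusted p of the authors' deposited table, 14 member loci were higher in hypoxia and 0 lower, where 1.69% of its rows were higher and 1.63% lower, and 3.48% of the rows tested here were higher. Of those 14 loci 10 are among the 18 called here, 2 were not tested here (both e2f1 loci) and 2 did not pass here (cdk1 100136692 and CDKN1B 110500295).

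Calls depended on which library was left out. Without hypoxia replicate 1, 2 or 3, 12, 2 and 2 member loci were higher in edgeR, and without control replicate 1, 2 or 3, 13, 4 and 3, with 0 lower each time. The share of all genes called higher in those fits was 1.21%, 1.58% and 1.18%, and 5.84%, 1.38% and 1.37%. Only mki67 (110491556) and ccnd1 (110526228) kept their calls in all 6 of these fits.

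**Figure D2:**
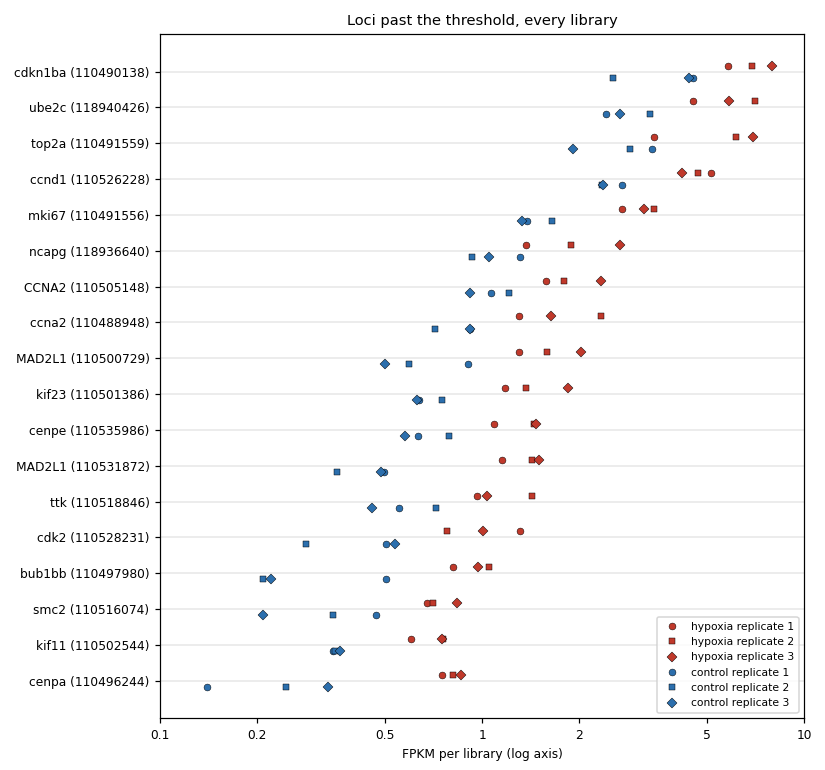
FPKM in each library (x axis, log scale) of the 18 loci past the threshold (rows, symbol and NCBI gene number), with hypoxia replicates in red above control replicates in blue and one symbol shape per replicate number. In all 18 rows the 3 hypoxia values lie above the 3 control values, and the smallest gaps are at top2a and ncapg, between hypoxia replicate 1 and control replicate 1. Rows chosen by their p-value tend to separate in this way, so this is a description. The same order held at 38 of the 67 tested member loci and at 13.9% of all tested genes. Of the 67 loci 15 passed the minimum only through their hypoxia level. The 38 hold such loci, so that count is a description too.

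Cyclins A and B with their kinase CDK1 form the engine of mitosis. Both loci of cyclin A2 rose, while those of cyclin B1, B2 and B3 and of cdk1 did not pass the threshold, though 8 of the 9 tested loci of this role had fitted values above 0 (median 0.81). The counts given for each role stand beside the 3.83% of all tested genes that were higher and the 3.39% that were lower. Cyclin A2 serves both DNA synthesis and entry into mitosis. The locus ccna2 (110488948) had 1.30, 2.35 and 1.64 FPKM in hypoxia replicates 1, 2 and 3, against 0.914, 0.714 and 0.917 FPKM in control replicates 1, 2 and 3, a log2 fold change of 1.04 (SE 0.28, edgeR adjusted p = 0.0473). CCNA2 (110505148) had 1.58, 1.79 and 2.35 FPKM in hypoxia and 1.06, 1.21 and 0.919 FPKM in control (0.81, SE 0.22, edgeR adjusted p = 0.0473). All hypoxia libraries were above all control libraries at both loci. Each lost its call in all 6 fits without 1 library. For ccna2 the adjusted p was 0.0578, 0.168 and 0.0964 without hypoxia replicates 1, 2 and 3 and 0.0612, 0.134 and 0.0975 without control replicates 1, 2 and 3, and for CCNA2 it was 0.0697, 0.109 and 0.156, and 0.0698, 0.0771 and 0.137. With both loci summed, cyclin A2 was at 0.91 (SE 0.18, edgeR adjusted p = 0.0172), and without hypoxia replicates 2 and 3 and control replicate 3 the adjusted p was 0.0653, 0.0635 and 0.0576.

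CDK1 is the kinase that these cyclins activate. Its locus 100136692 had 5.198, 9.96 and 10.4 FPKM in hypoxia, against 4.11, 5.65 and 3.53 FPKM in control, at 0.93 (SE 0.27, edgeR adjusted p = 0.062). Hypoxia replicate 1 lay within the control range and the other hypoxia libraries above it. The second locus, 110502539, showed the same order, with 2.92, 5.86 and 5.73 FPKM in hypoxia and 2.86, 3.74 and 2.099 FPKM in control (0.73, SE 0.29, edgeR adjusted p = 0.156). Without hypoxia replicate 1 the first locus had an edgeR adjusted p of 0.0375. Cyclin B1, which CDK1 needs to start mitosis, had 1.68, 3.03 and 3.39 FPKM in hypoxia and 1.34, 2.04 and 1.09 FPKM in control at ccnb1 (100136690), with overlapping groups (0.84, SE 0.32, edgeR adjusted p = 0.137). The phosphatase Cdc25b (110498311), which removes the inhibitory phosphates from CDKs, had 9.91, 11.8 and 11.9 FPKM in hypoxia and 12.5, 9.74 and 11.6 FPKM in control, at -0.03 (SE 0.15, edgeR adjusted p = 0.934).

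The G1 and S phase cyclins and kinases carry cells into DNA synthesis. Of 10 tested loci 2 rose, ccnd1 (110526228) and cdk2, none fell, and 3 that did not pass had fitted values below 0 (median of the role 0.26). Cyclin D1 links growth signals to the cycle, and its locus 110526228 had 5.14, 4.68 and 4.19 FPKM in hypoxia, against 2.72, 2.36 and 2.38 FPKM in control. It rose by 0.89 (SE 0.14, edgeR adjusted p = 0.00837), with a wide gap between the groups, and the adjusted p stayed between 0.00442 and 0.0378 without any 1 library. A second ccnd1 locus, 110524590, had 1.55, 1.15 and 0.821 FPKM in hypoxia and 1.00, 1.995 and 1.48 FPKM in control, at -0.38 (SE 0.28, edgeR adjusted p = 0.454), with overlapping groups. The other ccnd1 loci were under the minimum, at 0.501, 0.522 and 0.652 FPKM in hypoxia against 0.186, 0.163 and 0.380 FPKM in control for 110499952, and at 0.278, 0.305 and 0.119 FPKM against 0.246, 0.247 and 0.322 FPKM for 110506401. Whether the ccnd1 copies differ in their response was not tested. Over all 4 copies summed, cyclin D1 was at 0.55 (SE 0.14, edgeR adjusted p = 0.0441), and the adjusted p was 0.162, 0.137 and 0.0512 without hypoxia replicates 1, 2 and 3 and 0.0664, 0.0866 and 0.0936 without control replicates 1, 2 and 3.

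CDK2, the partner of cyclins E and A at the start of DNA synthesis, had 1.31, 0.778 and 1.00 FPKM in hypoxia at 110528231, against 0.504, 0.283 and 0.537 FPKM in control (1.19, SE 0.33, edgeR adjusted p = 0.0493). The groups did not overlap, and hypoxia replicate 1 was the highest library. The control mean of this locus was 0.441 FPKM, so it was tested only through its hypoxia level. Its call was lost without any 1 library, at adjusted p of 0.187, 0.0773 and 0.113 without hypoxia replicates 1, 2 and 3 and 0.0569, 0.142 and 0.0749 without control replicates 1, 2 and 3. CDK4, a partner of cyclin D, had 9.79, 8.55 and 11.9 FPKM in hypoxia at 110494214, against 8.32, 5.98 and 5.26 FPKM in control (0.61, SE 0.17, edgeR adjusted p = 0.0558), and passed without control replicate 1 (0.013). Here too the groups did not overlap. The cyclin D2 locus with the smallest p, CCND2 (110523486), had 1.71, 1.93 and 1.80 FPKM in hypoxia and 1.56, 1.28 and 1.18 FPKM in control (0.45, SE 0.15, edgeR adjusted p = 0.0931). For ccnd2a (110498391) the order was turned round, with 0.586, 0.509 and 0.646 FPKM in hypoxia and 0.758, 0.753 and 0.698 FPKM in control (-0.35, SE 0.19, edgeR adjusted p = 0.296). It was the only tested member locus with every hypoxia library below every control library, named after its values were seen. CDK6 was at -0.03 (cdk6, 110496645), and the 4 loci of cyclins E1 and E2 were under the minimum. With loci summed, cdk2 at 1.19 (SE 0.30, edgeR adjusted p = 0.0394) and cdk4 at 0.57 (SE 0.15, edgeR adjusted p = 0.0498) passed, and cyclin E1 was at 0.11 (SE 0.28, edgeR adjusted p = 0.858). Only the fit without control replicate 1 kept these summed calls (0.034 for cdk2 and 0.0127 for cdk4). The adjusted p was 0.159, 0.0502 and 0.105 for cdk2 and 0.12, 0.0901 and 0.153 for cdk4 without hypoxia replicates 1, 2 and 3, and 0.119 and 0.0806 for cdk2 and 0.143 and 0.152 for cdk4 without control replicates 2 and 3.

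Among the CDK inhibitors 1 of 5 tested loci rose and none fell. It was cdkn1ba (110490138), a copy of the inhibitor that holds CDK2 in check in quiescent cells, with 5.81, 6.92 and 7.95 FPKM in hypoxia, against 4.52, 2.55 and 4.38 FPKM in control (0.83, SE 0.21, edgeR adjusted p = 0.0401). All hypoxia libraries were above all control libraries. The call was kept without control replicate 1 (0.0313) and lost without hypoxia replicates 1, 2 and 3 (0.0676, 0.108 and 0.132) and control replicates 2 and 3 (0.0918 and 0.0577). At CDKN1B (110500295) the hypoxia libraries were close together, at 1.84, 1.73 and 1.71 FPKM, and the control libraries far apart, at 0.662, 0.152 and 1.13 FPKM (1.41, SE 0.45, edgeR adjusted p = 0.0829, and 0.0304 without control replicate 3). The copy cdkn1bb (110521395) had 1.52, 1.28 and 1.57 FPKM in hypoxia and 1.14, 0.804 and 1.22 FPKM in control (0.44, SE 0.19, edgeR adjusted p = 0.177). At CDKN1B (110500225) the values were 1.92, 2.08 and 2.44 FPKM in hypoxia and 3.06, 1.54 and 2.36 FPKM in control, with overlapping groups (-0.12, SE 0.21, edgeR adjusted p = 0.775). With its 7 loci summed, among them CDKN1B (110528083), which the table describes as cyclin-dependent kinase inhibitor 1 without a letter, cdkn1b was at 0.53 (SE 0.20, edgeR adjusted p = 0.14). The inhibitor cdkn1a (110494354), a target of p53 in mammals, was close to absent, with 0.078, 0.051 and 0.027 FPKM in hypoxia and 0.185, 0.046 and 0 FPKM in control.

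Of the mitotic kinases, the chromosomal passenger complex and the spindle assembly genes, 1 of 9 tested loci rose, a copy of the spindle motor kif11, and all 9 had fitted values above 0 (median 0.81). Of all tested genes 3.83% were higher. The called copy had a control mean of 0.352 FPKM and so was tested only through its hypoxia level. The same holds for aurkb (110524496) and birc5a (110502934), with control means of 0.435 and 0.379 FPKM, so the count above 0 is a description. At a minimum of 1 FPKM 0 of 5 loci of the role were higher, and with DESeq2 4 of 9. KIF11 pushes the spindle poles apart. The locus kif11 (110502544) had 0.602, 0.754 and 0.753 FPKM in hypoxia, against 0.344, 0.349 and 0.363 FPKM in control, with no overlap (0.97, SE 0.26, edgeR adjusted p = 0.047). Every fit without 1 library ended its call, with adjusted p of 0.0828, 0.141 and 0.122 without hypoxia replicates 1, 2 and 3 and 0.0717, 0.12 and 0.104 without control replicates 1, 2 and 3. The more abundant copy, kif11 (110529943), had 1.14, 2.41 and 2.50 FPKM in hypoxia and 1.13, 1.30 and 0.985 FPKM in control (0.81, SE 0.28, edgeR adjusted p = 0.0974, and 0.0343 without hypoxia replicate 1). In this copy hypoxia replicate 1 was level with the control libraries.

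Aurora B, the kinase of the passenger complex that corrects wrong attachments, had 2 loci that narrowly missed the threshold. The values of aurkb (110524496) were 0.783, 1.34 and 1.33 FPKM in hypoxia, against 0.328, 0.367 and 0.610 FPKM in control (1.36, SE 0.39, edgeR adjusted p = 0.0555). Those of aurkb (110499816) were 2.25, 2.24 and 2.73 FPKM in hypoxia, against 1.77, 1.39 and 0.899 FPKM in control (0.82, SE 0.23, edgeR adjusted p = 0.056, and 0.0238 without control replicate 1). Neither locus showed overlap between the groups. Summed over both, aurkb rose by 0.95 (SE 0.19, edgeR adjusted p = 0.0162). That call was lost without hypoxia replicates 2 and 3 (0.0572 and 0.0615) and control replicate 3 (0.0576). Polo-like kinase 1, which acts from entry into mitosis to cytokinesis, was at 0.44 (SE 0.18, edgeR adjusted p = 0.172) with its loci summed, and aurora A, the kinase of the spindle poles, at 0.63 (SE 0.46, edgeR adjusted p = 0.451).

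The centromere, kinetochore and checkpoint genes act where chromosomes meet the spindle. Of 8 tested loci 6 rose, with a median of 1.38, and of the 9 genes 7 rose with their loci summed. Of these 6 loci cenpa, bub1bb and MAD2L1 (110531872) had control means of 0.239, 0.311 and 0.445 FPKM and so were tested only through their hypoxia level, as were cenpa and ndc80 in summed form (0.395 and 0.441 FPKM in control). The count of 6 loci was 1, 0 and 0 without hypoxia replicates 1, 2 and 3, and 4, 1 and 0 without control replicates 1, 2 and 3. The exceptions were nuf2, which did not pass, and cenpf, which was under the minimum. The control mean of nuf2 was 0.453 FPKM, so it too was tested only through its hypoxia level. In all 9 genes every hypoxia library was above every control library in summed level, against the 13.9% of all tested genes, as single rows, given above. That the share differs from those of other roles was not tested. MAD2, the checkpoint protein that blocks the anaphase-promoting complex, rose at both loci. MAD2L1 (110531872) had 1.16, 1.43 and 1.51 FPKM in hypoxia, against 0.494, 0.355 and 0.486 FPKM in control (1.59, SE 0.36, edgeR adjusted p = 0.0254). MAD2L1 (110500729) had 1.30, 1.60 and 2.02 FPKM in hypoxia, against 0.901, 0.594 and 0.50 FPKM in control (1.29, SE 0.33, edgeR adjusted p = 0.04). Both were kept without control replicate 1 (0.0324 and 0.025) and lost in the other 5 such fits. For the first locus the adjusted p was 0.0604, 0.0824 and 0.08 without hypoxia replicates 1, 2 and 3 and 0.0891 and 0.0643 without control replicates 2 and 3, and for the second 0.0708, 0.102 and 0.13, and 0.114 and 0.125. Their sum was at 1.41 (SE 0.26, edgeR adjusted p = 0.0129) and missed the threshold only without hypoxia replicate 3 (0.0526).

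BUBR1, encoded by bub1b, acts beside MAD2 in the checkpoint. The copy bub1bb (110497980) had 0.812, 1.05 and 0.969 FPKM in hypoxia, against 0.503, 0.209 and 0.221 FPKM in control (1.60, SE 0.39, edgeR adjusted p = 0.0344). It was kept without control replicate 1 (0.0111) and lost without hypoxia replicates 1, 2 and 3 (0.0793, 0.107 and 0.0944) and control replicates 2 and 3 (0.111 and 0.108). Its other copy, Bub1b (110529349), had 0.894, 1.75 and 1.90 FPKM in hypoxia and 0.780, 1.103 and 0.650 FPKM in control, with hypoxia replicate 1 inside the control range (0.82, SE 0.31, edgeR adjusted p = 0.131). CENP-E, a motor that carries chromosomes to the spindle equator, has 1 locus, and cenpe (110535986) had 1.09, 1.45 and 1.47 FPKM in hypoxia, against 0.632, 0.788 and 0.575 FPKM in control (0.95, SE 0.19, edgeR adjusted p = 0.0176). The groups lay apart, and the call was lost without hypoxia replicates 2 and 3 (0.067 and 0.0666) and control replicate 3 (0.0643).

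The checkpoint kinase ttk (110518846) had 0.966, 1.42 and 1.04 FPKM in hypoxia, against 0.550, 0.718 and 0.456 FPKM in control (0.98, SE 0.26, edgeR adjusted p = 0.0467). CENP-A, the histone that marks the centromere, had 0.750, 0.814 and 0.857 FPKM in hypoxia at cenpa (110496244), against 0.140, 0.246 and 0.332 FPKM in control (1.71, SE 0.47, edgeR adjusted p = 0.0493). This was the largest fold change of a called member and one of the least counted, with 17, 19 and 19 reads in hypoxia and 3, 6 and 9 in control. Neither of these calls survived any fit without 1 library. The adjusted p of ttk was 0.0814, 0.163 and 0.0909 without hypoxia replicates 1, 2 and 3 and 0.0749, 0.0575 and 0.139 without control replicates 1, 2 and 3, and that of cenpa was 0.114, 0.129 and 0.125, and 0.0873, 0.13 and 0.0706. The NDC80 complex binds the spindle microtubules. Its member nuf2 (110494850) had 0.792, 2.18 and 0.918 FPKM in hypoxia and 0.425, 0.601 and 0.332 FPKM in control, with hypoxia replicate 2 far above the rest (1.47, SE 0.45, edgeR adjusted p = 0.0739). Its member ndc80 was under the minimum at each of its 2 loci and rose by 1.37 (SE 0.34, edgeR adjusted p = 0.0382) when they were summed. The summed calls of ndc80, bub1, bub1b, cenpa and ttk were each lost without 4 to 6 single libraries, in every case without hypoxia replicates 2 and 3 and control replicates 2 and 3. The adjusted p without those 4 libraries was 0.11, 0.138, 0.0745 and 0.118 for ndc80, 0.115, 0.135, 0.0819 and 0.124 for bub1, 0.137, 0.144, 0.0617 and 0.132 for bub1b, 0.0864, 0.0724, 0.0666 and 0.0671 for cenpa, and 0.162, 0.0943, 0.0632 and 0.137 for ttk. Without hypoxia replicate 1 it was 0.0517 for bub1, 0.0575 for cenpa and 0.0728 for ttk, and without control replicate 1 it was 0.0598 for bub1b and 0.0743 for ttk.

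Of the genes of chromosome structure 4 of 8 tested loci rose and none fell (median 0.87). Ki-67 coats mitotic chromosomes and is used as a marker of cycling cells. Its locus mki67 (110491556) had 2.72, 3.42 and 3.18 FPKM in hypoxia, against 1.38, 1.64 and 1.33 FPKM in control (1.08, SE 0.16), and had the smallest adjusted p of all members (edgeR, 0.00793). Without any 1 library that p stayed between 0.00536 and 0.0348. Topoisomerase II alpha, which untangles sister chromatids, had 3.42, 6.16 and 6.94 FPKM in hypoxia at top2a (110491559), against 3.36, 2.87 and 1.91 FPKM in control (1.01, SE 0.26, edgeR adjusted p = 0.0415). Hypoxia replicate 1 was barely above control replicate 1. The call was lost without hypoxia replicates 2 and 3 (0.127 and 0.147) and control replicates 2 and 3 (0.0845 and 0.125).

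The condensin subunits, which compact the chromosomes, ranged widely in level. The core subunit smc2 (110516074) had 0.675, 0.705 and 0.837 FPKM in hypoxia, against 0.467, 0.343 and 0.208 FPKM in control (1.13, SE 0.30, edgeR adjusted p = 0.0446). With a control mean of 0.339 FPKM it was tested only through its hypoxia level. The regulatory subunit ncapg (118936640) had 1.37, 1.89 and 2.68 FPKM in hypoxia, against 1.31, 0.932 and 1.05 FPKM in control (0.90, SE 0.24, edgeR adjusted p = 0.0484). The groups did not overlap at either locus. The call of smc2 was lost without hypoxia replicates 1, 2 and 3 (0.102, 0.107 and 0.133) and control replicates 2 and 3 (0.107 and 0.126), and that of ncapg without hypoxia replicates 2 and 3 (0.103 and 0.164) and control replicates 2 and 3 (0.134 and 0.126). The locus named ncapd2 (110509344), another condensin subunit, was the most abundant member, with 23.9, 23.6 and 28.1 FPKM in hypoxia and 19.9, 28.0 and 27.6 FPKM in control, at 0.02 (SE 0.16, edgeR adjusted p = 0.963). Both loci summed, smc2 rose by 0.97 (SE 0.21, edgeR adjusted p = 0.0237), with the call lost without hypoxia replicates 2 and 3 (0.0773 and 0.0912) and control replicates 2 and 3 (0.0577 and 0.0796). The other core subunit, smc4, was at 0.53 (SE 0.20, edgeR adjusted p = 0.13), and an assembled SMC4 fragment without a gene number had reads in hypoxia replicate 3 and was at 0 in the other 5 libraries.

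At anaphase onset the anaphase-promoting complex tags securin and cyclin B for destruction, which frees separase to cut the ties between sister chromatids. Of 5 tested loci 1 rose, the ubiquitin carrier ube2c (118940426), and all 5 had fitted values above 0 (median 0.87). It had 4.52, 7.04 and 5.86 FPKM in hypoxia, against 2.43, 3.32 and 2.69 FPKM in control (1.04, SE 0.25, edgeR adjusted p = 0.0311). The groups were well apart, and the call was kept without hypoxia replicate 1 (0.0468) but lost without hypoxia replicates 2 and 3 (0.112 and 0.083) and control replicates 1, 2 and 3 (0.0505, 0.0545 and 0.0836). The locus cdc20 (110508662), whose product activates the anaphase-promoting complex, had 2.37, 4.07 and 3.62 FPKM in hypoxia, against 2.04, 2.13 and 1.43 FPKM in control (0.84, SE 0.25, edgeR adjusted p = 0.0636, and 0.0492 without hypoxia replicate 1). Securin, at pttg1 (110505182), had 1.86, 2.29 and 1.98 FPKM in hypoxia, against 0.679, 1.71 and 0.715 FPKM in control (0.95, SE 0.41, edgeR adjusted p = 0.181). In both genes every hypoxia library was above every control library. Separase, at espl1 (110494335), had 0.499, 0.858 and 1.43 FPKM in hypoxia and 0.519, 0.538 and 0.450 FPKM in control, with hypoxia replicate 1 inside the control range (0.87, SE 0.31, edgeR adjusted p = 0.117, and 0.04 without hypoxia replicate 1). Summed over its 2 loci ube2c was at 0.78 (SE 0.20, edgeR adjusted p = 0.0401), with the call lost without hypoxia replicates 2 and 3 (0.13 and 0.12) and control replicates 1 and 3 (0.0698 and 0.118).

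Of the cytokinesis genes 1 of 12 tested loci rose, and all 12 had fitted values above 0 (median 0.83), as did 9583 of all 19365 tested genes. The loci ect2 (110524458), ECT2 (110521587) and Anln (110494127) had control means of 0.383, 0.395 and 0.467 FPKM. Those of racgap1 (110492103), PRC1 (110521199) and PRC1 (110523805) were 0.466, 0.353 and 0.434 FPKM. All of these were tested only through their hypoxia level, so the count above 0 is a description. KIF23 bundles the microtubules between the separating chromosomes and, with racgap1, recruits ECT2, the activator of the contractile ring. The locus kif23 (110501386) had 1.18, 1.37 and 1.85 FPKM in hypoxia, against 0.636, 0.752 and 0.626 FPKM in control (1.1, SE 0.23, edgeR adjusted p = 0.0203). The groups did not overlap, and the call was lost without hypoxia replicates 2 and 3 (0.0605 and 0.0787) and control replicate 3 (0.0635). The values of ect2 (110524458) were 0.50, 1.05 and 0.834 FPKM in hypoxia and 0.409, 0.505 and 0.236 FPKM in control (1.06, SE 0.35, edgeR adjusted p = 0.0944). KIF20A, a motor that brings polo-like kinase 1 to the midzone, had 0.806, 1.32 and 1.95 FPKM in hypoxia and 0.712, 0.823 and 0.627 FPKM in control at 110534112 (0.91, SE 0.30, edgeR adjusted p = 0.0944, and 0.0459 without hypoxia replicate 1). In both of these hypoxia replicate 1 was the lowest of its group and lay inside the control range.

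Anillin, the scaffold of the contractile ring, had 0.559, 0.935 and 0.969 FPKM in hypoxia and 0.443, 0.555 and 0.402 FPKM in control at Anln (110494127), at 0.79 (SE 0.27, edgeR adjusted p = 0.106). The most abundant locus of the role was PRC1 (110526676), which crosslinks midzone microtubules, with 0.762, 2.02 and 1.86 FPKM in hypoxia and 1.13, 1.01 and 0.763 FPKM in control (0.67, SE 0.35, edgeR adjusted p = 0.274). Here hypoxia replicate 1 was the lowest of all 6 libraries. Over its 6 loci prc1 was at 0.79 (SE 0.22, edgeR adjusted p = 0.0508), and kif23 over 3 loci at 0.86 (SE 0.20, edgeR adjusted p = 0.0298). The summed call of kif23 was lost without hypoxia replicates 2 and 3 (0.0849 and 0.107) and control replicate 3 (0.0953).

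The regulators of transcription had 5 loci, of which 1 was tested. The retinoblastoma gene rb1 (100135880), whose protein holds E2F factors inactive in resting cells, had 3.55, 3.08 and 3.22 FPKM in hypoxia and 3.29, 2.45 and 2.82 FPKM in control (0.18, SE 0.14, edgeR adjusted p = 0.48). E2F1, which switches on genes of DNA synthesis, was under the minimum at both loci. E2F1 (110532406) had 0.826, 0.683 and 0.590 FPKM in hypoxia, against 0.321, 0.170 and 0.116 FPKM in control, and e2f1 (110492203) had 0.377, 0.378 and 0.460 FPKM in hypoxia, against 0.196, 0.109 and 0.129 FPKM in control. Both had every hypoxia library above every control library. With no minimum they were at 1.78 (SE 0.36, edgeR adjusted p = 0.00337) and 1.47 (SE 0.36, edgeR adjusted p = 0.0144), and both also pass in the authors' deposited table, at adjusted p of 0.00324 and 0.0279. Summed, e2f1 rose by 1.64 (SE 0.27, edgeR adjusted p = 0.00903), and the adjusted p stayed between 0.00171 and 0.0404 without any 1 library. Its summed control mean was 0.347 FPKM, so it was tested only through its hypoxia level, and this call is a description. FOXM1, the factor that drives genes of mitosis, had 0.253, 0.397 and 0.534 FPKM in hypoxia and 0.342, 0.150 and 0.142 FPKM in control at Foxm1 (110490495), and 0.170, 0.382 and 0.402 FPKM in hypoxia and 0.379, 0.166 and 0.229 FPKM in control at Foxm1 (110499966). The groups overlapped at both, and the sum was at 0.64 (SE 0.38, edgeR adjusted p = 0.345).

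**Figure D3:**
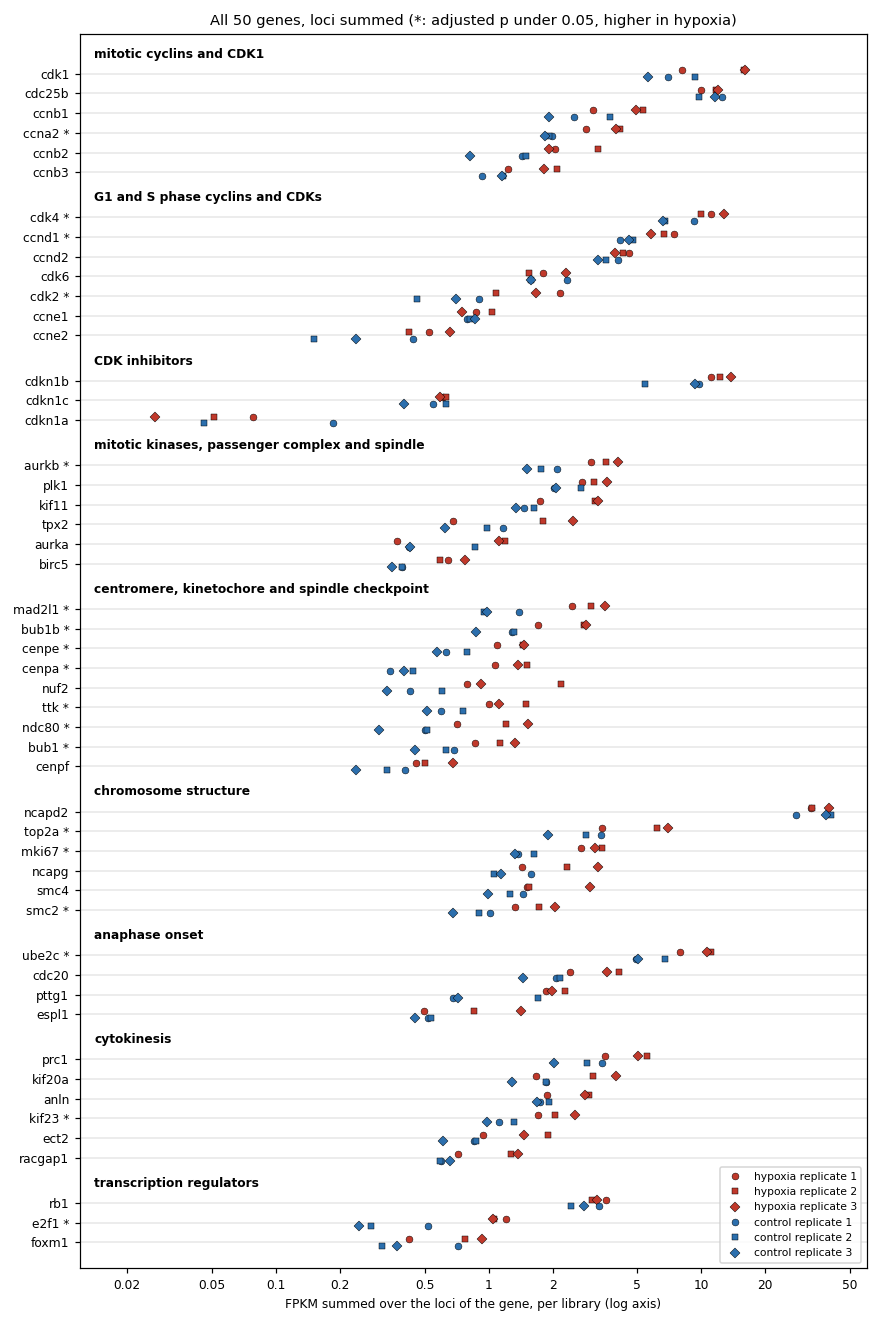
FPKM summed over the loci of each gene in each library (x axis, log scale) for all 50 genes (rows, by role), with hypoxia replicates in red above control replicates in blue. The 18 genes with a star have an edgeR adjusted p under 0.05. In the 9 genes of the centromere and checkpoint all red points lie right of the blue ones. That order held at 31 of the 47 tested genes, and at 13.9% of all tested genes as single rows, which is not a like measure. Of the 9 genes cenpf was not tested, and cenpa, ndc80 and nuf2 passed the minimum only through their hypoxia level. The order in these 9 genes is therefore a description. The value of 0 FPKM of cdkn1a in control replicate 3 cannot be drawn on a log axis.

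The hypoxia libraries were not alike in these genes. Hypoxia replicate 1 was the lowest of its group at 49 of the 67 tested member loci (73.1%) and the highest at 7, while it was the lowest at 25.6% of all tested genes. By role, it was the lowest at 9 of 9 loci of the mitotic cyclins and CDK1, 8 of 8 of the centromere and checkpoint, 5 of 5 of anaphase onset, 11 of 12 of cytokinesis, 7 of 8 of chromosome structure and 6 of 9 of the mitotic kinases and spindle, but at 1 of 10 loci of the G1 and S phase cyclins and kinases. In the median over loci, the ratio to the control mean was 1.13, 2.02 and 1.93 in hypoxia replicates 1, 2 and 3 for the mitotic cyclins and CDK1, against 0.987, 1.28 and 0.797 in control replicates 1, 2 and 3. For the G1 and S phase genes it was 1.36, 1.30 and 1.11 in hypoxia, against 1.12, 0.945 and 0.952 in control. These are descriptions of single libraries over loci that share their library, the grouping by phase was looked at after the values had been seen, and no test was made. Of the 67 tested loci 15 passed the minimum only through their hypoxia level, with cdk2 of the G1 and S phase genes among them. Without hypoxia replicate 1 the median log2 fold change of the tested members was 1.01, and without hypoxia replicates 2 and 3 it was 0.71 and 0.66.

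**Figure D4:**
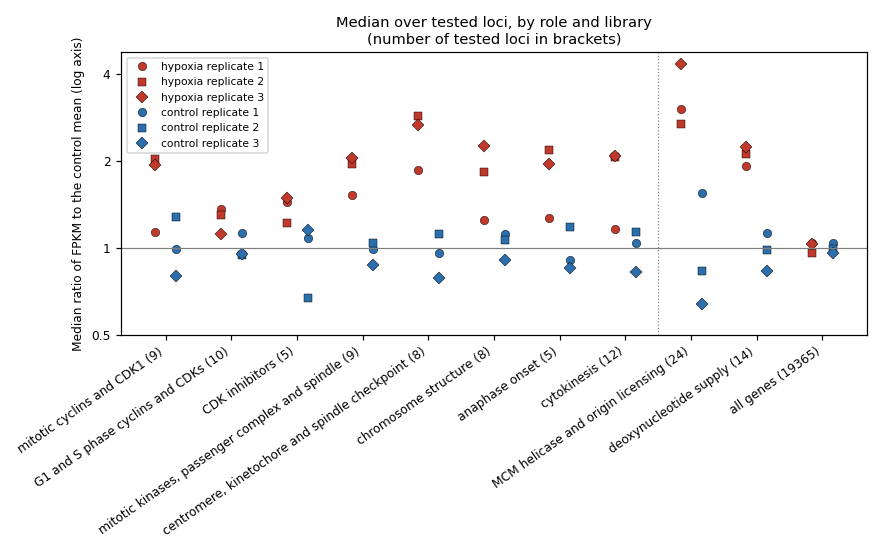
Median over tested loci of the ratio of FPKM to the control mean (y axis, log scale), for 8 roles of the mitosis and cyclin genes, 2 lists of DNA synthesis genes and all tested genes (x axis), with one point per library, hypoxia in red left of control in blue. Hypoxia replicate 1 (red circle) lies below the other hypoxia libraries in 6 of the 8 roles, at 1.13 for the mitotic cyclins and CDK1 and 1.85 for the centromere and checkpoint. Among the centromere and checkpoint loci cenpa, nuf2, bub1bb and MAD2L1 (110531872) passed the minimum only through their hypoxia level. Such loci are in other roles too, so the ratios are descriptions.

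Genes that prepare DNA synthesis were compared as the nearest other genes of the cycle. Of 24 tested loci of the MCM helicase and origin licensing 16 were higher and 0 lower, with a median of 1.76. Of 14 tested loci of deoxynucleotide supply 8 were higher and 0 lower, with a median of 0.96. Of all tested genes 3.83% were higher and 3.39% lower. How many loci of these lists passed the minimum only through their hypoxia level was not counted. For the helicase list the median ratio to the control mean was 3.02, 2.67 and 4.31 in hypoxia replicates 1, 2 and 3, against 1.55, 0.828 and 0.637 in control replicates 1, 2 and 3, so hypoxia replicate 1 was not the lowest there and control replicate 1 was the highest control. For the mitosis and cyclin genes the same medians were 1.27, 1.94 and 1.98 in hypoxia, against 1.03, 1.06 and 0.868 in control. Of the 67 loci in these member medians 15 passed the minimum only through their hypoxia level. For the deoxynucleotide list they were 1.91, 2.11 and 2.23 in hypoxia, against 1.12, 0.983 and 0.83 in control, and hypoxia replicate 1 was the lowest of its group at 9 of 14 loci (64.3%). The differences between these lists were not tested.

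A list of other mitosis genes that are not members gave 231 loci of 129 genes, of which 135 loci were tested. In edgeR 12 were higher (8.89%) and 0 lower (median 0.44), where 3.83% of all tested genes were higher and 3.39% lower. The number of these loci that passed the minimum only through their hypoxia level was not counted, so the share is a description. Hypoxia replicate 1 was the lowest of its group at 81 of the 135. The 6 with the smallest p were CKS1B, rbl1, CKAP2, aspm, lmnb1 and pbk. CKS1B (110496000), a small subunit of CDK complexes, had 3.08, 3.29 and 3.80 FPKM in hypoxia, against 1.20, 1.21 and 1.45 FPKM in control (1.40, SE 0.21, edgeR adjusted p = 0.00824), and was called in all 6 fits without 1 library. The retinoblastoma relative rbl1 (110493862) had 2.34, 2.102 and 3.08 FPKM in hypoxia, against 1.58, 1.02 and 1.06 FPKM in control (1.02, SE 0.19, edgeR adjusted p = 0.0135, and 0.0534 and 0.0519 without hypoxia replicate 3 and control replicate 3). The spindle genes CKAP2 (110537455) and aspm (110524785) were at 1.01 and 0.89, the nuclear lamina gene lmnb1 (110523200) at 0.61 and the mitotic kinase pbk (110529615) at 1.09. These 4 calls were kept without hypoxia replicate 1 and control replicate 1 and lost without hypoxia replicates 2 and 3 and control replicate 3. The adjusted p without those 3 libraries was 0.0704, 0.0758 and 0.0677 for CKAP2, 0.079, 0.079 and 0.0721 for aspm, 0.0987, 0.0886 and 0.0868 for lmnb1, and 0.103, 0.104 and 0.088 for pbk. Without control replicate 2 it was 0.0582 for CKAP2, 0.0769 for lmnb1 and 0.0968 for pbk. Without hypoxia replicates 1, 2 and 3 the list had 15, 2 and 1 loci higher, where 1.21%, 1.58% and 1.18% of all genes were higher. Without control replicates 1, 2 and 3 it had 19, 4 and 1, where 5.84%, 1.38% and 1.37% were higher. As shares of the 135 loci, the counts without hypoxia replicate 2, hypoxia replicate 3 or control replicate 3 were not above those of all genes.

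Markers of other liver cells were read in the same libraries. Of 26 tested loci of red blood cells, which are nucleated in fish, 14 were lower and 0 higher, and the summed level of all 66 loci was 489 to 631 FPKM in hypoxia, against 921 to 1260 FPKM in control. Leukocyte markers had 0 higher and 1 lower of 18, with sums of 205 to 229 FPKM in hypoxia and 198 to 261 FPKM in control. Endothelial markers had 0 higher and 1 lower of 20, with sums of 40.0 to 41.5 FPKM in hypoxia and 45.7 to 48.9 FPKM in control. Stellate cell and matrix markers had 0 higher and 5 lower of 25, with sums of 206 to 290 FPKM in hypoxia and 295 to 381 FPKM in control, and biliary markers had 0 higher and 0 lower of 16. The share lower was 53.8% for red cell, 5.56% for leukocyte, 5% for endothelial and 20% for stellate and matrix markers. Of all tested genes 3.39% were lower and 3.83% higher, so the leukocyte and endothelial counts of calls lie near that share. The 2 lists differed below the threshold. Fitted values were below 0 at 20 endothelial loci and above 0 at 0, and at 10 and 8 leukocyte loci. Every hypoxia library was below every control library at 45% of endothelial and 5.56% of leukocyte loci, against 13.1% of all tested genes. At stellate and matrix loci it was 36%, with fitted values below 0 at 20 loci and above 0 at 5. Among 42 tested hepatocyte loci 2 were higher and 1 lower, with fitted values below 0 at 27 and above 0 at 15. Every hypoxia library was below every control library at 28.6% of these hepatocyte loci and above at 16.7%, where 13.9% of all tested genes were above. The genes gata1 and hba2 of the red cell list, rag1 of the leukocyte list and spp1 of the biliary list were at 0 in every library. Of the germ cell list 40 of 41 loci were under the minimum, and bmp15, nanos2, nanos3 and zar1 were at 0. The 1 tested germ cell locus had a mean of 82.9 FPKM over all libraries, at a log2 fold change of -0.04, and did not pass. The part of these cell types in the result for the mitosis and cyclin genes was not tested.

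In the gene order of the assembly USDA_OmykA_1.1 a few members were close neighbours. The loci mki67 (110491556) and top2a (110491559), both higher in hypoxia, had 2 protein-coding genes between them. A cdk1 locus lay near a kif11 locus in 2 places, with 6 genes between cdk1 (100136692) and kif11 (110529943) and 3 between cdk1 (110502539) and kif11 (110502544). The ndc80 loci 110525222 and 110525223 were next to each other. Coordinates were left out because no source used here names the build of the deposited table.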

How the data were processed

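Total RNA of flash-frozen liver was extracted with Trizol and sequenced, per the labels' protocols. The deposited table holds raw counts per gene and FPKM per library, per the file headers, with the authors' log2 fold change, p-value and adjusted p-value. The submitters' processing notes list Bowtie2 2.2.8 and TopHat2 2.1.1 without a role. Which counter, annotation, build, strand setting and test produced the table is not given in the sources used here. From the same series, the 6 small RNA libraries were not used here, and the group at 12 h of hypoxia named in the design text was not analysed here.

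Counts were tested with edgeR 4.0.16 in R 4.3.3 (quasi-likelihood, TMM, group as the only term, two-sided) on the 19365 genes with a mean of at least 0.5 FPKM, with Benjamini-Hochberg adjustment and a threshold of 0.05. Each SE was derived from the unshrunken log2 fold change and F. Alternatives used DESeq2 1.42.0, limma 3.58.1 on log2(FPKM + 0.5), other filters, a replicate block and fits without 1 library. The members and lists were chosen with earlier results of these data known. Loci with values in every library are up to 4 per role with the smallest adjusted p, the most abundant per role and all of mki67, cdk1, cdkn1a, ccnd1 and foxm1, with up to 6 of the other mitosis genes. Loci outside these (cenpa, ttk, nuf2, e2f1, ccnd2a and cdk6) were named after their values were seen. On counts simulated from these libraries for this comparison, over 19365 genes, the test called 11.9% of 1.5-fold, 55.2% of 2-fold and 92.4% of 4-fold changes. It also called 9 unchanged genes. The simulation changed 200 genes, where 1398 were called in the real data, and drew them without regard to the members' levels. Its rates therefore need not hold for the members. No 2 libraries of a group agreed within sampling noise (their chi-square was 12.4 to 30.1 times its degrees of freedom). Of the 106 loci 104 had an NCBI gene number, and all 104 were found in the reference gene table of USDA_OmykA_1.1. The reference symbol matched the member's name at 33 of them, and the rest carried a LOC number there in place of a name. Sequences of these genes were not used here.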

Additional observations from a re-analysis of the deposited data

How the results depend on the processing

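The count of 18 of 67 member loci higher in hypoxia was 25 of 67 with DESeq2 (17 of the 18 among them) and 18 of 67 with DESeq2's size factors. It was 16 of 90 with filterByExpr and 18 of 68 with loci added by description. With no filter it was 29 of 103, at a minimum of 1 FPKM 11 of 44, and in limma with pseudocounts of 0.5, 0.1 and 1 it was 10, 9 and 10 of 67. The share of all genes higher was 4.91% with DESeq2, 3.89% with its size factors, 3.05% with filterByExpr and 2.88% with no filter. At a minimum of 1 FPKM it was 4.71%, and in those limma fits 2.63%, 2.41% and 2.7%. Without 1 library the count was 2 to 13, where 1.18% to 5.84% of all genes were higher. Member loci lower numbered 0 in all of these, and other mitosis genes lower also 0. The 12 other mitosis genes higher became 26 with DESeq2, 6 at a minimum of 1 FPKM, 36 with no filter and 1 to 19 without 1 library, beside the same shares of all genes. The 1398 genes called among all genes became 826, 771 and 846 in limma with pseudocounts of 0.5, 0.1 and 1, and 361 to 2186 without 1 library. With loci summed, the 18 genes higher became 25 with DESeq2 and 2 to 22 without 1 library, with 0 lower. In the main summed fit 3.84% of all rows were higher. That share was not counted for the other summed fits, so their counts have no background beside them.

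The replicate numbers of the labels showed no clear pairing of the libraries. The correlation of the libraries' deviations from the group means was -0.0543, 0.0369 and -0.0402 for numbers 1, 2 and 3. Libraries of unlike number were not compared, so a pairing is not excluded. With a replicate block 10 member loci were higher, 8 of them among the 18, where 2.87% of all genes were higher. In that fit 9 other mitosis genes were higher, and 1046 genes were called in all.

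Signs were followed only for the loci chosen by the rule given above, and 3 uncalled ones changed sign. Without 1 library Cdc25b (110498311) ran from -0.10 to 0.07, and was above 0 (0.02, 0.02 and 0.07) when the omitted library was control 1, control 3 or hypoxia 1. CDKN1B (110500225) ran from -0.33 to 0.07, above 0 when control 1 was omitted. ncapd2 (110509344) ran from -0.14 to 0.12, below 0 (-0.14 and -0.06) when control 1 or hypoxia 3 was omitted. The locus of cdk6 was not followed, and with its loci summed cdk6 ran from -0.16 to 0.15 without 1 library. The median log2 fold change of tested members was 0.66 to 1.01 without 1 library, and 0.53, 0.73 and 0.38 in limma with pseudocounts of 0.5, 0.1 and 1, where the pseudocount understates the change of low loci. Many members had under 100 reads per library, so members below the threshold are not shown to be unchanged. The simulation called 55.2% of 2-fold changes, a rate that need not hold for the members.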
